A study of Mus musculus with 18 samples.

Results

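The 34 genes described here encode proteins that drive cells through the division cycle and copy their DNA, read in mouse liver after ischemia-reperfusion (IR) and after sham surgery. In IR, blood flow to the liver is cut off for a time and then let back in. The list was drawn up by gene symbol with earlier results of these data known, and all 34 were found among the 47729 gene identifiers of the table through the GENCODE vM21 symbols. The labels describe 9 IR and 9 sham liver samples, with 3 Wt, 3 Il22-/- and 3 Il22bp-/- samples in each surgery group. Il22-/- mice lack the cytokine IL-22 and Il22bp-/- mice lack its soluble binding protein. Strain, age, sex and the time between surgery and tissue collection are not given in the labels. In the count table, 9 column headers begin with IR and 9 with W, and no header states a genotype. W was read as sham by elimination, since 9 samples were sham and only 6 were Wt. The 3 genotypes are therefore mixed in both groups, the deletions could not be checked, and libraries are named below by their headers. The labels number the samples without stating that each came from a separate animal, so p-values measure the spread between these libraries.

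Most hepatocytes of an adult liver rest outside the cycle and can return to it after injury. D-type cyclins carry cells through G1 by releasing E2F factors from the retinoblastoma protein, and E-type cyclins then start S phase. Before S phase CDC6 and CDT1 load the MCM helicase onto replication origins, which is called licensing. E2F drives genes of licensing and DNA synthesis through short GC-rich sites. Genes of G2 and mitosis peak later, under the DREAM and MuvB-B-MYB-FOXM1 complexes, through the cell cycle homology region (CHR). Promoters of such genes often hold CCAAT boxes as well. In liver, several of these proteins are also made by dividing blood and endothelial cells.

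Most of these genes were lower in IR than in sham livers, and none was called higher. With a mean normalised count of at least 10 over the 18 libraries, 30 of the 34 could be tested, and 22 fell in IR at an adjusted p under 0.05. The background was wide: 37.7% of 12686 genes tested fell and 38.3% rose, or 76.0% in either direction. The 8 tested members that were not called were Foxm1, Ccne1, Mcm2, Cdt1, Rrm2, Aurka, Cdca8 and Mcm7. Cdc6, Ccnb1, Bub1 and Plk1 were below the minimum. The median log2 difference, IR minus sham, was -1.11 over the 30 tested members and 0.02 over all genes tested. Among the 30, 15 had every IR library below every sham library, against 20.3% of all genes tested, and none had every IR library above, against 19.9%. By size, 16 fell by at least 1 log2 unit, against 17.0%, a size chosen after the values were seen. A filter on the mean can pass a gene through the higher group alone, and that held for 8 members whose IR mean was under 10 (Ccna2, Ccnb2, Cdk1, Foxm1, Aurkb, Birc5, Cdc20 and Ube2c). Of the 22 with a mean of at least 10 in both groups, 15 fell, and the share of all genes under that rule was not counted. Without the minimum, 25 of the 34 fell, beside 20.4% of 27259 genes, and none rose, beside 23.2%. Of the 34, 17 had every IR library below every sham library, beside 9.94% of those genes, and none the reverse, beside 9.71%. Those 27259 genes include many below the minimum, whereas 30 of the 34 members lay above it, so these shares are not of genes at like levels. In bulk liver RNA, fewer cells of a type and less RNA per cell cannot be told apart.

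**Figure D1:**
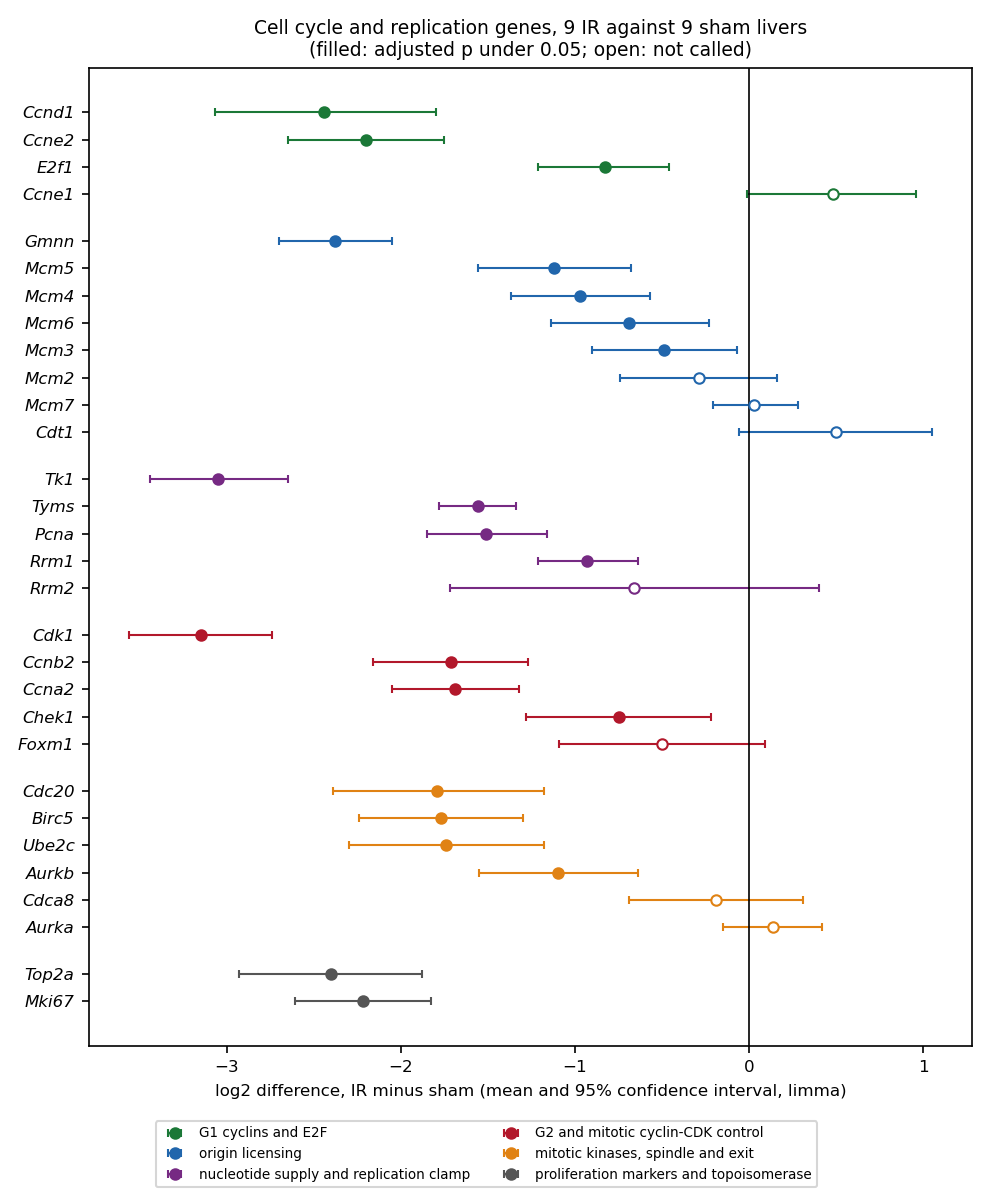
Log2 difference (horizontal axis, IR minus sham, log2 normalised count + 1) for the 30 tested genes in rows, coloured by role. Points are means, bars are 95% confidence intervals from limma, and filled points mark the 22 called genes, all to the left of 0, while Mcm7 and Aurka lie close to 0 and Cdt1 and Ccne1 to its right.

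Recovered depth was alike in both groups, at 10176617 to 12558179 reads in IR libraries and 10716890 to 12763837 in sham libraries. Albumin (Alb), the main secreted product of hepatocytes, took 2.86% to 7.48% of reads in IR libraries and 12.9% to 15.9% in sham libraries, so that the labelled tissue was plain in both. Markers of other cells moved with the same contrast, beside the 37.7% of all tested genes that fell and the 38.3% that rose. The 6 tested lymphocyte markers of 12 were called lower, but all 6 had passed the minimum through sham livers alone. The normalised counts of all 12 lymphocyte markers summed to 25.8 to 64.4 in IR livers and 160 to 262 in sham livers. The B cell marker Ms4a1 was at 0 in 6 IR libraries. The 7 tested neutrophil markers of 12 were called higher, and 4 of them had passed the minimum through IR livers alone. Sums over all 12 were 328 to 4078 in IR livers and 57.0 to 128 in sham livers, and Mpo, a marker of immature granulocytes, was at 0 in 7 IR and 5 sham libraries. Of 12 monocyte and macrophage markers 7 fell and 4 rose, with sums of 2995 to 5157 in IR livers and 7570 to 10720 in sham livers. Of 8 tested erythroid markers 3 fell, and the sums over all 10 overlapped, at 498 to 3640 in IR livers and 1064 to 3501 in sham livers. Of 12 hepatocyte markers 9 fell and 1 rose. Of 10 endothelial markers 4 fell and 4 rose, and of 11 stellate and cholangiocyte markers 2 fell and 8 rose. The part of these cells in the differences below was not tested.

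Promoter sequence is shown for genes whose transcripts fell together and for members that were not called, so that their motifs can be set side by side. RefSeq windows on GRCm38.p6 were available for 27 of the 34 genes, and Ccnd1, Ccne2, Gmnn, Mcm4, Ccna2, Foxm1 and Aurkb are named only. The 250 bases before each start were searched on both strands for CHR words (TTTGAA and TTCGAA), the CCAAT box (CCAAT) and E2F words (TTTCCCGC, TTTGGCGC, TTTCGCGC and TTTGCCGC). Some of these words can overlap each other on opposite strands. A CHR word stood in 6 of the 13 searched G2, mitotic and proliferation genes (46.2%), against 17.1% of 32851 windows. A CCAAT box stood in 11 of the 13 (84.6%), against 33.8% of windows. An E2F word stood in 4 of 7 licensing genes (57.1%), against 1.86% of windows. Of the same 7 licensing genes, 5 held a CCAAT box (71.4%) and 2 held a CHR word (28.6%). Of the 13 G2, mitotic and proliferation genes, 1 held an E2F word (7.69%). Among the 16 searched genes that fell, 6 held a CHR word (37.5%), and among the 7 that were tested and not called, 2 did (28.6%). A CCAAT box stood in 68.8% of the genes that fell and in 71.4% of those not called. For E2F words these shares were 18.8% and 14.3%. Whether these sets differed in their words was not tested. A match is a description of the letters and not a binding site. In the following 180-base stretches before the start, written 5′ to 3′ on the gene's strand, capitals mark the words found on either strand.
Cdk1 (chr10:69352913-69353092, minus strand): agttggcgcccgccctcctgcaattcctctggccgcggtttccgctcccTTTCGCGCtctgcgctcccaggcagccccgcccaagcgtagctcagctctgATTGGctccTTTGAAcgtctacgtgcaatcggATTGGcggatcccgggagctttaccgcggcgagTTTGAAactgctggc
Cdc20 (chr4:118437344-118437523, minus strand): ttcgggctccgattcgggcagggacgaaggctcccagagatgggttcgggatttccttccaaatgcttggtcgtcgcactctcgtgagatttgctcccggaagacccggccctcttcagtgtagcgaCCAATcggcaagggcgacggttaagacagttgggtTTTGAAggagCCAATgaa
Ube2c (chr2:164769749-164769928, plus strand): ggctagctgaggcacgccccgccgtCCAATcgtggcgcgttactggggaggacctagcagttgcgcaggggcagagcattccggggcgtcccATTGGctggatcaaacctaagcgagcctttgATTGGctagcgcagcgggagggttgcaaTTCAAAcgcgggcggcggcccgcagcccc
Top2a (chr11:99024190-99024369, minus strand): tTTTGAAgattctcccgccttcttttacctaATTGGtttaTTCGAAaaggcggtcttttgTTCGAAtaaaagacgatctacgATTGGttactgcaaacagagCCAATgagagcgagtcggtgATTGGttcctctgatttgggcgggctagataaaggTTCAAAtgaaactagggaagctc
Mcm6 (chr1:128359706-128359885, minus strand): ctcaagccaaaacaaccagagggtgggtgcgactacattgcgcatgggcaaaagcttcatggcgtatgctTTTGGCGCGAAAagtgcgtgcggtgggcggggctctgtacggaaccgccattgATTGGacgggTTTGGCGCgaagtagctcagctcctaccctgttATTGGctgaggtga
Mcm7 (chr5:138171884-138172063, minus strand): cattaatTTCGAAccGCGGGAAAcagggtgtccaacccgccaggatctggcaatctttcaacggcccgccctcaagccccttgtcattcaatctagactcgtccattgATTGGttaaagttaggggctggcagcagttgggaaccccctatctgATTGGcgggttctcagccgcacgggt
Aurka (chr2:172370571-172370750, minus strand): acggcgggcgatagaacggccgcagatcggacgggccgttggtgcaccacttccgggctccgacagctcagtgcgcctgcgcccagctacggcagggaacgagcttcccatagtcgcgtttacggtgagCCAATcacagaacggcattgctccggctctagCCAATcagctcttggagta
Cdk1, Cdc20, Ube2c and Top2a hold CHR words and CCAAT boxes in the shown stretch, Cdk1 also holds an E2F word, and all 4 genes fell. Mcm6 holds E2F words and CCAAT boxes and fell. Mcm7, with all 3 kinds of word as in Cdk1, and Aurka, with CCAAT boxes only, were not called. A second RefSeq window of Mcm7, which is not shown, holds a CCAAT box only. The shown genes are a selection of the 27 searched. Of the rest, E2f1, Tyms, Chek1, Tk1 and Birc5 fell and held none of the words in their windows. Ccne1 and Cdt1, which were not called, held none either.

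The G1 and E2F genes were led by cyclin D1, and 3 of the 4 fell. Their median log2 difference was -1.52, against 0.02 over all genes tested. Of all genes tested 37.7% fell, and 20.3% had every IR library below every sham library. The same all-gene values apply to the counts by role that follow. Ccnd1 (ENSMUSG00000070348, chromosome 7, 144929931 to 144939925, minus strand, GRCm38), which encodes the cyclin that answers growth signals, had 90.9 (lowest), 262 (median) and 470.3 (highest) normalised counts in IR livers, against 952, 1365 and 1657 in sham livers. No IR library reached the lowest sham library, although IR values themselves spread over a wide range, with IR1 and IR4 lowest. Its log2 difference was -2.44 (SE 0.30, 95% confidence interval -3.07 to -1.80, adjusted p = 4.08e-07). Ccne2, a cyclin E gene of S phase entry, had 5.11, 12.6 and 19.1 in IR livers and 38.4, 57.5 and 75.6 in sham livers. It fell by 2.20 on the log2 scale (SE 0.22, adjusted p = 1.36e-08), with no overlap between groups. Its partner gene Ccne1 had 27.2, 36.8 and 78.3 in IR livers and 17.6, 39.9 and 47.7 in sham livers. Here the groups overlapped, although 4 IR libraries lay above the highest sham library. The log2 difference of Ccne1 was 0.48 (95% confidence interval -0.01 to 0.96, adjusted p = 0.0691), and it passed the threshold upward without IR1 (adjusted p = 0.0314), W2 (0.0495) or W6 (0.0459). E2f1, a transcription factor that activates S phase genes, had 21.5, 32.4 and 54.1 in IR livers and 42.8, 53.5 and 104 in sham livers. It fell by 0.83 (SE 0.18, adjusted p = 3.21e-04), with 8 of 9 IR libraries below the lowest sham library. Exons shared with a gene on the opposite strand made up 23.4% of Ccnd1 (LTO1) and 17.4% of Ccne2 (Ints8), and whether reads were counted by strand is not stated in the labels.

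**Figure D2:**
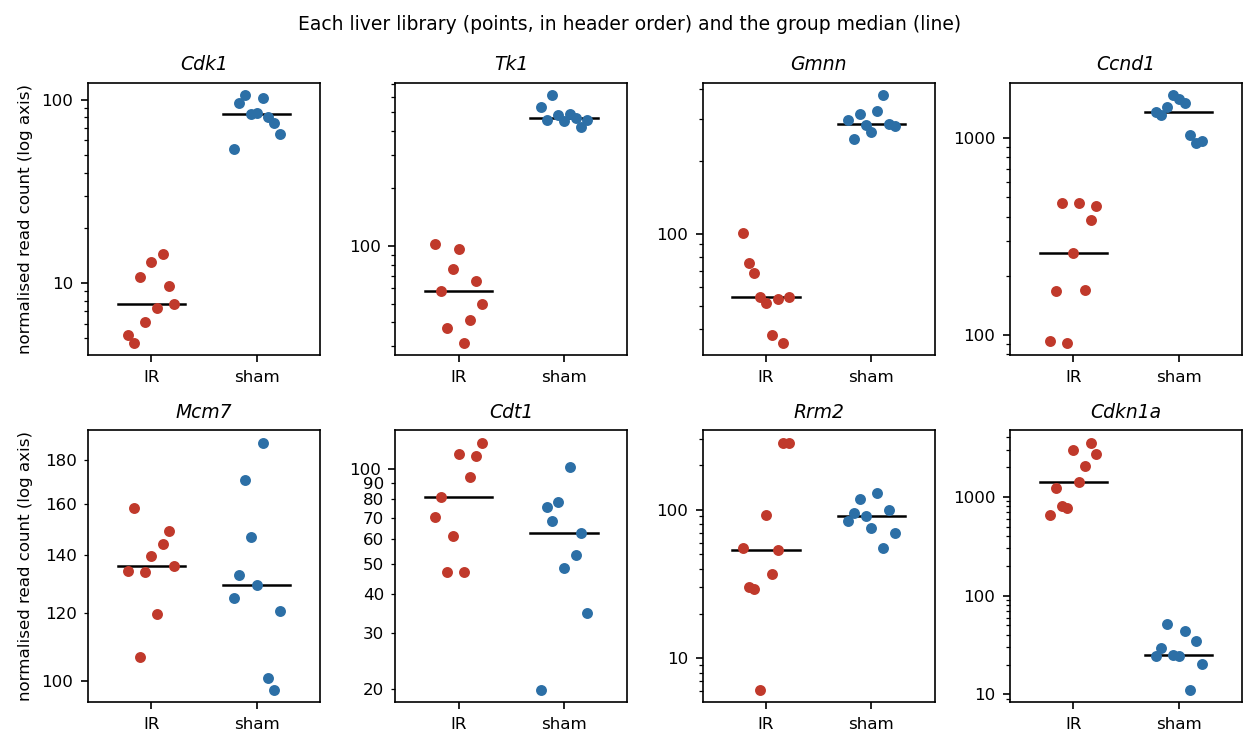
Normalised read count of each library (vertical log axis, 1 point a library, IR left of sham, line at the group median) for 7 cycle genes and the CDK inhibitor gene Cdkn1a. Cdk1, Tk1, Gmnn and Ccnd1 show no overlap with every IR point below, Mcm7, Cdt1 and Rrm2 overlap, with 2 IR points of Rrm2 above all sham points, and Cdkn1a shows every IR point above.

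Of the 8 tested licensing genes 5 fell, with a median log2 difference of -0.59, and the genes did not move alike. Gmnn (ENSMUSG00000006715, chromosome 13, 24751845 to 24761923, minus strand), which encodes geminin, the inhibitor of CDT1, had 35.0, 54.1 and 100.4 normalised counts in IR livers and 247, 288 and 377 in sham livers. The groups stood far apart, and the log2 difference was -2.38 (SE 0.16, 95% confidence interval -2.70 to -2.05, adjusted p = 4.45e-11). Cdt1, the target of geminin and a loader of the MCM helicase, had 46.8, 81.2 and 121 in IR livers and 19.8, 62.5 and 102 in sham livers. Its groups overlapped, 3 IR libraries lay above every sham library, and its log2 difference was 0.50 (95% confidence interval -0.06 to 1.05, adjusted p = 0.0942). Without W6, the highest sham library, Cdt1 was called higher in IR (log2 difference 0.60, adjusted p = 0.0429). Cdc6, the other loader, was counted by 39 reads over the 9 IR libraries and 110 over the 9 sham libraries. It was below the minimum, and without that minimum its log2 difference was -1.44 (adjusted p = 0.00142), with overlapping groups.

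The 6 measured subunits of the MCM ring, the helicase that unwinds DNA, spread from a called decrease to a difference near 0. Mcm5 had 18.6, 37.8 and 65.0 normalised counts in IR livers and 57.7, 79.0 and 136 in sham livers, and fell by 1.12 on the log2 scale (SE 0.21, adjusted p = 7.71e-05). Mcm4 had 36.6, 47.6 and 83.2 in IR livers and 71.0, 95.5 and 175 in sham livers, and fell by 0.97 (SE 0.19, adjusted p = 1.23e-04). In both genes 8 of 9 IR libraries lay below the lowest sham library. Mcm6 had 63.3, 109 and 139 in IR livers and 98.0, 148 and 351 in sham livers, and fell by 0.69 (SE 0.22, adjusted p = 0.0075). Mcm3 had 43.9, 62.3 and 103 in IR livers and 63.2, 94.0 and 186 in sham livers, with a log2 difference of -0.49 (SE 0.20, adjusted p = 0.0317). The call on Mcm3 was lost without IR1, IR2, IR3, IR6, W4 or W6, with adjusted p between 0.057 and 0.0691. Mcm2 had 52.3, 84.1 and 153 in IR livers and 61.0, 109.7 and 214 in sham livers, and its log2 difference of -0.29 (95% confidence interval -0.74 to 0.16, adjusted p = 0.234) was not called. Mcm7 had 107, 136 and 159 in IR livers and 97.7, 129 and 189 in sham livers. Its group means were almost equal, at 136 ± 15.4 in IR livers and 135 ± 30.0 in sham livers (SD, n = 9 each), and the interval of its log2 difference was -0.21 to 0.28 (adjusted p = 0.815). The exons of Mcm7 share 7.3% of their length with Ap4m1 on the opposite strand. Whether the 6 subunits differed from each other in their response was not tested.

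Genes of nucleotide supply and the replication clamp were lower in 4 of 5 cases, with a median log2 difference of -1.51 and Rrm2 apart. Tk1 (ENSMUSG00000025574, chromosome 11, 117815526 to 117826092, minus strand), thymidine kinase of the salvage pathway, had 31.2, 58.5 and 102 normalised counts in IR livers and 419, 468 and 612 in sham livers. The IR mean was 12.8% of the sham mean, no libraries overlapped, and the log2 difference was -3.05 (SE 0.19, 95% confidence interval -3.44 to -2.65, adjusted p = 1.73e-11). Tyms, thymidylate synthase of the pathway that makes thymidylate anew, had 31.3, 44.95 and 60.7 in IR livers and 118, 139 and 143 in sham livers, and fell by 1.56 (SE 0.11, adjusted p = 6.58e-11). Pcna, the sliding clamp of the replication fork, had 102, 150.1 and 243 in IR livers and 352, 439 and 511 in sham livers, and fell by 1.51 (SE 0.17, adjusted p = 6.48e-08). Rrm1, the large subunit of ribonucleotide reductase, had 75.3, 104 and 134 in IR livers and 147, 176 and 299 in sham livers, and fell by 0.93 (SE 0.14, adjusted p = 3.74e-06). All 4 genes had every IR library below every sham library. Rrm2, the small subunit of the same enzyme, had 6.13, 53.5 and 282 in IR livers and 55.5, 90.2 and 128 in sham livers. The IR livers were split, with IR8 and IR9 above every sham library and 6 IR libraries below the lowest. Of those 6, IR1 (55.43) and IR7 (53.46) lay just under the lowest sham value (55.46 in W7), while IR5 (91.9) lay within the sham range. The mean of Rrm2 was 96.1 ± 107 in IR livers and 90.7 ± 23.0 in sham livers (SD, n = 9 each). Its log2 difference was -0.66 (95% confidence interval -1.72 to 0.40, adjusted p = 0.244). On recovered reads the sign of Rrm2 turned, to 0.07 with edgeR and 0.08 with DESeq2, neither of them called.

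Of the 5 tested cyclin-CDK genes of G2 and mitosis 4 fell, with a median log2 difference of -1.69, and 4 of the 5 had passed the minimum through sham livers alone. Cdk1 (ENSMUSG00000019942, chromosome 10, 69335146 to 69352938, minus strand), the kinase that triggers mitosis and the first sequence shown above, had 4.72, 7.73 and 14.3 normalised counts in IR livers and 53.5, 83.9 and 106 in sham livers. Its IR mean was 10.6% of the sham mean, and its log2 difference was -3.15 (SE 0.20, 95% confidence interval -3.56 to -2.74, adjusted p = 1.81e-11). Ccna2, the cyclin of S phase and G2, had 5.96, 8.17 and 13.9 in IR livers and 19.4, 32.1 and 39.9 in sham livers, and fell by 1.69 (SE 0.18, adjusted p = 3.72e-08). Ccnb2, a mitotic cyclin partner of CDK1, had 5.202, 8.19 and 14.7 in IR livers and 20.8, 32.7 and 48.7 in sham livers, and fell by 1.71 (SE 0.21, adjusted p = 3.79e-07). None of these genes had overlapping groups. The pseudogene Ccnb2-ps averaged 5.95 in IR livers and 10.05 in sham livers, so reads of Ccnb2 could have been split between the copies. Ccnb1, the other B-type cyclin, was counted by 7 reads over all IR libraries and 67 over all sham libraries, and 4 IR libraries had none. Chek1, a checkpoint kinase that restrains CDK1 when replication stalls, had 7.73, 13.4 and 17.3 in IR livers and 12.4, 17.4 and 52.8 in sham livers, and fell by 0.75 (SE 0.25, adjusted p = 0.0115) with overlapping groups. Foxm1, an activator of G2 genes, had 3.82, 8.27 and 16.4 in IR livers and 5.77, 13.3 and 19.7 in sham livers. Its log2 difference of -0.50 (95% confidence interval -1.09 to 0.09, adjusted p = 0.115) was not called, at 89 reads over IR libraries and 107 over sham libraries. Exons of Ccna2 share 12.5% of their length with Exosc9 on the opposite strand.

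**Figure D3:**
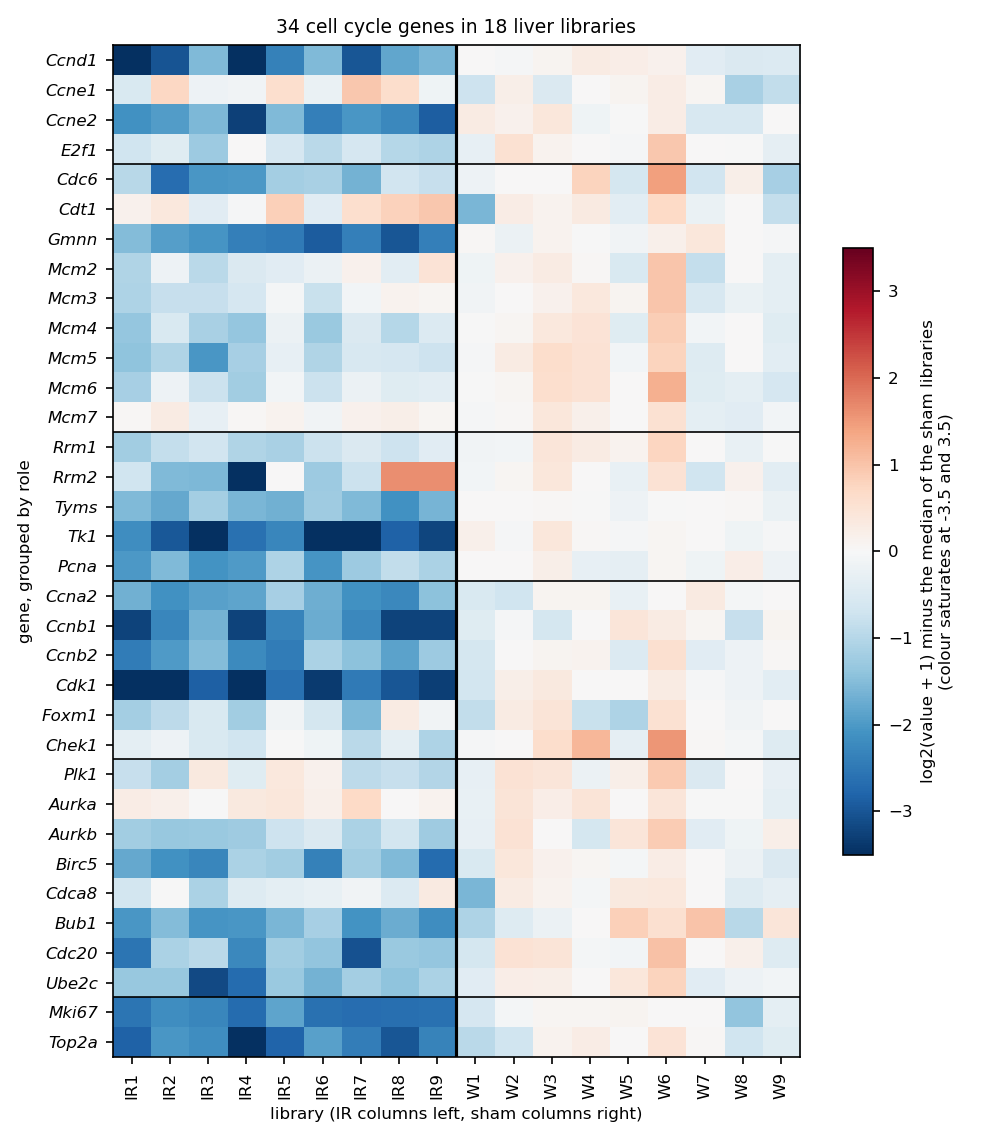
Log2 normalised count + 1 of each of the 34 genes (rows, by role) in each library (columns, IR left of sham) minus the median of the sham libraries, with colour saturating at both ends of the scale. IR columns are low for Cdk1, Tk1, Gmnn and most mitotic genes, but not for Aurka or Cdca8. Rrm2 is split among IR columns, and column W6 is high for most genes among sham columns.

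Genes of mitotic exit and the chromosomal passenger complex fell in 4 of 6 tested cases, with a median log2 difference of -1.42, while Aurka and Cdca8 were not called. All 4 that fell had passed the minimum through sham livers alone. Cdc20, an activator of the anaphase-promoting complex, had 1.91, 8.59 and 11.8 normalised counts in IR livers and 14.9, 23.3 and 48.7 in sham livers, and fell by 1.79 (SE 0.29, adjusted p = 1.39e-05). Ube2c, the ubiquitin-conjugating enzyme of that complex, had 1.96, 9.41 and 11.2 in IR livers and 18.8, 25.2 and 43.5 in sham livers, and fell by 1.74 (SE 0.27, adjusted p = 6.60e-06). Birc5, which encodes survivin of the passenger complex, had 3.44, 7.32 and 12.3 in IR livers and 18.8, 27.7 and 36.8 in sham livers, and fell by 1.77 (SE 0.23, adjusted p = 5.67e-07). These 3 genes had separate groups in every library. Aurkb, the kinase of the same complex, had 4.72, 5.23 and 9.19 in IR livers and 8.39, 13.5 and 25.9 in sham livers, and fell by 1.10 (SE 0.22, adjusted p = 1.28e-04), with 8 of 9 IR libraries below the lowest sham library. Cdca8, borealin of that complex, had 8.81, 15.6 and 24.9 in IR livers and 5.95, 19.97 and 25.9 in sham livers. Its log2 difference was -0.19 (95% confidence interval -0.69 to 0.31, adjusted p = 0.477). Aurka, a centrosome and spindle kinase, had 28.4, 33.1 and 47.7 in IR livers and 22.5, 28.9 and 39.9 in sham livers. Its log2 difference was 0.14 (95% confidence interval -0.15 to 0.42, adjusted p = 0.368), and its level did not separate the groups. Bub1, a spindle checkpoint kinase, was counted by 14 reads over IR libraries and 70 over sham libraries, with every IR library below every sham library. Plk1, a kinase of mitotic entry and exit, was counted by 73 reads over IR libraries and 94 over sham libraries, and its groups overlapped. Without the minimum on the mean, Bub1 (log2 difference -1.84, adjusted p = 1.95e-05) and Ccnb1 (-2.46, adjusted p = 1.79e-07) were called lower, and Plk1 (-0.56, adjusted p = 0.116) was not. Exons of Ube2c share 22.8% of their length with Tnnc2 on the opposite strand.

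The proliferation marker Mki67, whose protein Ki-67 coats mitotic chromosomes, had 12.3, 12.9 and 22.5 normalised counts in IR livers and 31.8, 84.3 and 90.04 in sham livers. Its log2 difference was -2.22 (SE 0.19, adjusted p = 1.41e-09), and W8 stood well below the other sham libraries. Top2a, the topoisomerase that untangles sister chromosomes, had 5.11, 17.2 and 24.8 in IR livers and 49.6, 95.8 and 135 in sham livers, and fell by 2.40 (SE 0.25, adjusted p = 3.57e-08). Neither gene had an IR library within the sham range.

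Levels between genes were compared per kilobase of exon. Among the 34 genes in sham livers, Ccnd1 had the highest mean level per kilobase (280.0), ahead of Gmnn (203), Pcna (179) and Tk1 (93.4). In IR livers the same scale gave Pcna 65.4, Ccnd1 60.4, Gmnn 40.2, Rrm2 34.7 and Mcm7 30.6, so that the top of the order was closer together. The place of Rrm2 rested largely on IR8 and IR9, and the SD of its level per kilobase in IR livers was 38.7. At the low end, Ccnb1 had a mean level per kilobase of 0.173 in IR livers and 1.89 in sham livers, and Bub1 0.325 in IR livers and 1.94 in sham livers.

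**Figure D4:**
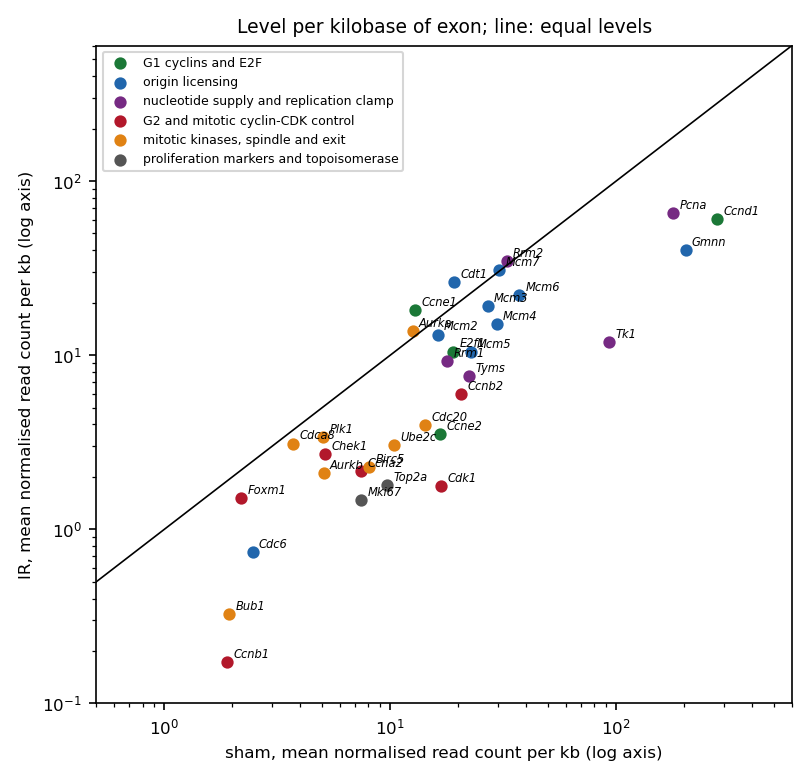
Mean normalised count per kilobase of exon in sham livers (horizontal log axis) and in IR livers (vertical log axis), 1 point a gene, coloured by role. Points on the diagonal have equal means, as for Mcm7, while Tk1 and Cdk1 lie far below it and Ccne1, Cdt1, Aurka and Rrm2 slightly above it.

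Sham libraries differed among themselves in these genes. W6 held the highest sham value in 21 of the 34 genes and the lowest in none, while W1 held the lowest in 9, W8 in 8 and W9 in 7. The summed normalised count of the 9 licensing genes was 484 to 798 in IR livers and 1709 in W6, with 831 to 1270 in the other sham livers. In W6 the hepatocyte markers summed to 2152000, the lowest sham value, and the lymphocyte markers to 235, within the sham range. Whether W6 carries a particular genotype was not analysed here. Among IR libraries, IR5 held the highest value in 8 of the 34 genes and IR3 the lowest in 7. Without W6, 20 members were called lower, since Aurkb then fell below the minimum and the call on Mcm3 was lost.

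Other genes of the cycle, in 10 lists that hold 127 genes, moved in both directions. Of these, 108 were tested, 59 fell and 30 rose, with a median log2 difference of -0.60, beside 37.7% lower, 38.3% higher and a median of 0.02 over all genes tested. Of the 108, 13 had passed the minimum through sham livers alone. The same all-gene shares apply to the list counts that follow. Genes that load and fire origins were lower, with 9 of 12 tested genes down, none up and a median of -1.01. Among them, Mcm10, a helicase activator, had 28.4, 93.7 and 437 normalised counts in IR livers and 498.5, 569.5 and 729 in sham livers. It fell by 2.36 on the log2 scale (adjusted p = 6.66e-06), Gins1 of the GINS complex fell by 1.43 and Orc5 of the origin recognition complex fell by 1.32. Of 17 tested polymerase, clamp loader and ligase genes 9 fell and 1 rose, with log2 differences of -2.57 for Rpa3 (single-strand binding), -2.38 for Pola1 (primase-polymerase) and -1.83 for Rfc4 (clamp loader). Of these 17, 2 had passed the minimum through sham livers alone. Of 16 tested kinetochore, spindle and cytokinesis genes 13 fell and 1 rose, with a median of -1.54. Anln and Ect2, which serve cytokinesis, had log2 differences of -2.30 and -2.21, and Spc25, of the kinetochore, -2.28. In this list 8 of the tested genes passed the minimum through the sham group alone. Of 10 tested chromatin, repair and checkpoint genes linked to replication 9 fell. Of the 8 with a mean of at least 10 in both groups, a rule for which no all-gene share was counted, 7 fell. Among the 9 were Uhrf1 (-1.49), a reader of hemimethylated DNA that had passed the minimum through sham livers alone, and Atm (-1.47), a kinase of DNA breaks. Their exception was Dnmt1, the maintenance DNA methyltransferase, with 158, 260.5 and 519.8 normalised counts in IR livers and 81.3, 104 and 134 in sham livers, which rose by 1.53 (adjusted p = 7.83e-07).

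Inhibitors and regulators held genes called in both directions, and the shares of several of these lists lie near those of all genes tested, 37.7% lower and 38.3% higher. Of 6 tested CDK inhibitor genes 4 fell and 1 rose. The one that rose was Cdkn1a, which encodes p21, an inhibitor of CDK2 and a p53 target, with 649.5, 1412 and 3527 normalised counts in IR livers and 11.1, 25.2 and 51.8 in sham livers. Its log2 difference was 5.74 (SE 0.33, adjusted p = 6.92e-12), with every IR library above every sham library. Cdkn3, which had passed the minimum through sham livers alone, fell by 2.66, and Cdkn2c, an inhibitor of CDK4 and CDK6, fell by 1.69. Of 8 other G1 cyclin, CDK and RB family genes 4 fell and 3 rose, with Cdk6 higher by 0.55 and Ccnd2 (-0.73) and Rbl2 (-0.76) lower. Of 12 tested E2F, MYB and MuvB genes 4 fell and 6 rose. E2f4 (1.31) and the MuvB subunit gene Lin37 (1.18) were higher, and Lin9 (-1.72), another MuvB subunit gene, was lower. Of 7 tested genes of mitotic entry 2 fell and 4 rose. Wee1, a kinase that restrains CDK1, had 8.49, 13.7 and 58.1 in IR livers and 160.3, 192 and 223 in sham livers and fell by 3.14 (adjusted p = 1.58e-08), whereas Pkmyt1 (1.53), which also restrains CDK1, and Ccnf (1.30), a cyclin of ubiquitin ligases, rose. Early growth response genes rose in 8 of 10 tested cases and fell in 2, led by Ier3 (4.26), Fos (3.95) and Jun (3.12). Myc, a growth factor-induced transcription factor, had 62.7, 163 and 1316 in IR livers and 43.9, 80.7 and 199 in sham livers. It rose by 1.45 (adjusted p = 0.0101), with overlapping groups. Of 10 p53 targets of growth arrest 5 rose and 3 fell, with Btg2 (2.16) and Plk3 (1.45) higher and Sesn1 (-1.49) lower.

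**Figure D5:**
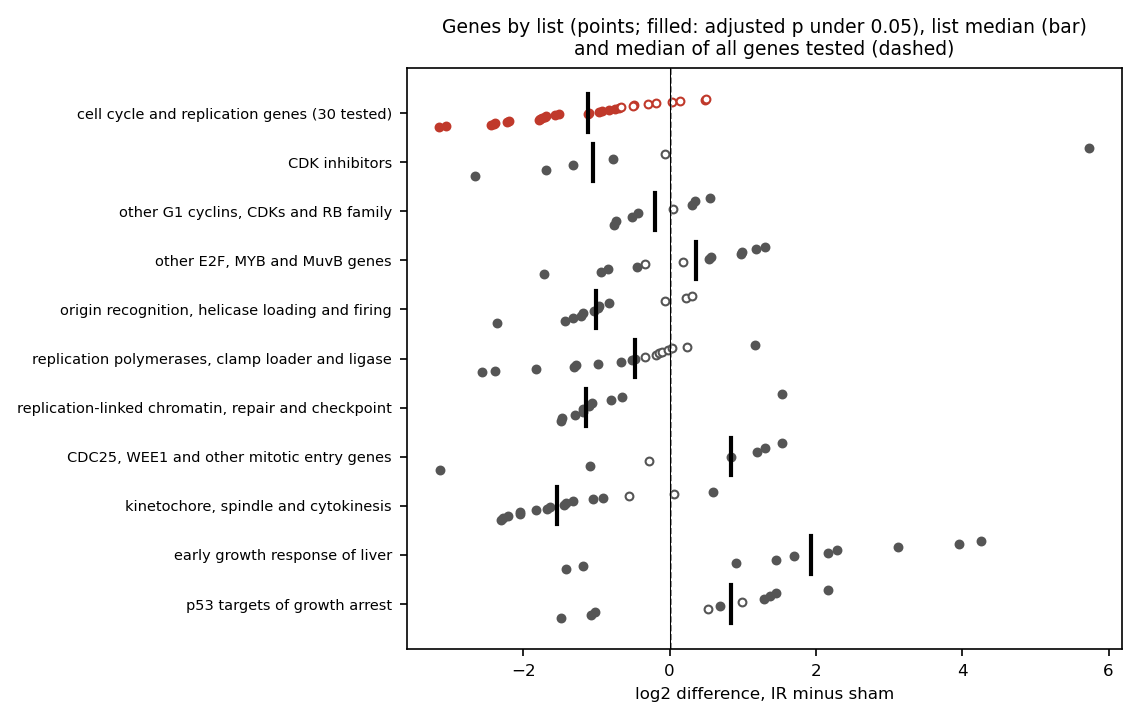
Log2 difference (horizontal axis, IR minus sham) of every tested gene in the member set and in 10 lists of other cycle genes (rows), 1 point a gene, with filled points for adjusted p under 0.05, a bar at each list's median and a dashed line at the median of all genes tested. The origin, chromatin and kinetochore lists lie mostly to the left of 0, early growth genes mostly to the right, and the CDK inhibitors hold Cdkn1a at 5.74.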

How the data were processed

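Liver RNA of 18 samples was read as 9 IR and 9 sham libraries. Reads were trimmed with Trimmomatic 0.33 and aligned with STAR 2.5.0a to GRCm38, with DESeq2 1.14 also named, per the submitters' processing notes. Which read counter and annotation were used is not stated there. The deposited signal is, by the table's name, a gene count that the authors divided by a DESeq2 size factor per library. Undoing that division gave whole reads for 100.0% of values (tolerance 0.01), 10176617 to 12763837 a library. No pair of libraries of the same surgery group agreed within sampling noise (72 pairs compared). Precision is limited by reads per gene.

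Log2(value + 1) was fitted with limma 3.58.1 (trend, R 4.3.3) on 12686 genes with a mean of at least 10, IR against sham, with Benjamini-Hochberg adjustment over all of them and a threshold of 0.05. Fold changes are on that scale, which understates low genes. On recovered reads edgeR 4.0.16 (quasi-likelihood) called 4767 genes lower and 4924 higher. DESeq2 1.42.0, other minimums, pseudocounts and scalings, a header-number block and each library left out were alternatives. Genotype could not be modelled. The fit was tested on simulated data. Members and lists were chosen with earlier results of these data known. Named list genes are the 3 called with the largest log2 difference in each list, plus Cdkn1a and Myc; Ms4a1, Mpo and the uncalled members were named after their values were seen. Sequences are RefSeq's. Tables were read with Python 3.11.15.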

Additional observations from a re-analysis of the deposited data

Results flagged for a closer look

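In 7 of 130 groups of 9 libraries, over the members and the other named genes, the highest or lowest library stood apart from the rest on the log2 scale by a fixed gap criterion, and chance alone gives about 5% of groups. Among members, the lowest sham value of Cdca8 was 5.95 normalised counts in W1, and that of Mki67 was 31.8 in W8. Among the other cycle genes, Orc5 was lowest at 246 and Uhrf1 highest at 63.2 in W6 among sham livers. Ier3 was lowest at 6.93 in W5 among sham livers. Among IR livers, Atm was lowest at 14.3 in IR4 and Anln at 0.867 in IR5.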

How the results depend on the processing

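Over 28 alternative settings, 807 of 824 member results kept their direction and their side of the threshold. With a minimum mean of 50, 11 members fell, because only 15 were tested. At that minimum 3808 of all 9855 genes tested fell and 3920 rose. Leaving out each library in turn gave 20 to 22 members lower and 0 to 2 higher, and 4686 to 4811 genes lower and 4744 to 4860 higher overall. Mcm7 turned to -0.02 without W7 or without W8, within a range of -0.02 to 0.10, and to -0.01 with edgeR. Rrm2 turned to 0.07 with edgeR and 0.08 with DESeq2, and the cause was not tested. Scaling by TMM moved the median of all genes to -0.001. The labels' replicate numbers could not be tied to columns. The header numbers share only a number: deviations of same-numbered columns correlated at -0.1 to 0.12 and 0 of 9 matched best. A block on them gave 21 members lower and 1 higher (Ccne1, adjusted p = 0.043), with Mcm3 lost (adjusted p = 0.0654), and 4751 genes lower and 4821 higher in all. Genes counted by few reads, such as Ccnb1 and Bub1, are limited by depth, and genotypes are mixed in every value.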
